A study of Mus musculus with 78 samples.

Results

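The Arc line of GFP-marked retinal amacrine cells was measured as 3 separate sets of 3 arrays, and the first of these sets, Arc 1st, was compared with the later ones, Arc 2nd and Arc 3rd. The arrays were chosen by their titles alone. They make up 9 of the 78 arrays of the series, 3 in the first set and 6 in the later ones. Of 22347 probe sets, 19446 carry 1 gene symbol, and 11107 of these were bright enough in at least 1 Arc set to be tested.

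The series profiled adult mouse retinal cells from 22 transgenic lines in 26 sets of biological triplicates on Affymetrix expression arrays. It was run in 3 batches, with Arc as the control carried through them. All 9 Arc arrays came from the line Tg(Arc-EGFP)194Gsat/Mmcd, in which the regulatory region of the gene Arc drives EGFP, on a mixed background of C57BL/6J and an FVB/N-Swiss Webster hybrid. No treatment separates the sets, and no age beyond "adult" is given. The labels describe mice of such lines as carrying a recessive mutation that makes photoreceptors degenerate and as having been backcrossed and used in the F2 generation. Each sample held 200 sorted cells, taken after 15 min of dissociation with papain. Arc 1st is labelled batch 1 and Arc 3rd batch 3. Arc 2nd carries no batch label.

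Amacrine cells are the inhibitory interneurons of the inner retina. Most release GABA or glycine, and many types add a neuropeptide such as vasoactive intestinal polypeptide, neuropeptide Y, a tachykinin or the CART peptide, so peptide genes are used to tell the types apart. Arc itself is an immediate early gene whose transcription follows neuronal activity, and a reporter built on it marks whichever cells the integrated transgene is active in. A repeat of such a sort asks whether the same mixture of cells and the same transcripts are recovered.

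The 9 arrays resembled one another over all tested probe sets. Correlations between arrays of the same set ran from 0.919 to 0.944 in Arc 1st, from 0.953 to 0.959 in Arc 2nd and from 0.945 to 0.959 in Arc 3rd. The median between Arc 1st and Arc 3rd was 0.919, against 0.936 for each of the other pairings of sets. The Arc gene read 27.7, 25.5 and 32.2 in Arc 1st, 25.2, 29.0 and 26.4 in Arc 2nd and 18.9, 17.0 and 19.7 in Arc 3rd, in the linear intensity units of the deposited table. Arc was brighter on all 9 arrays than in any other set by its mean, of which the brightest was b2 1st at 15.6. In each set 1 of the 3 arrays, replicate 2 of Arc 1st and replicate 1 of the others, had Xist, transcribed from the inactive X chromosome of females, above the Y-linked Eif2s3y, so the sets did not differ in that count.

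A probe set was called different where its Benjamini-Hochberg adjusted p in limma was below 0.05 and its log2 difference reached 1 in either direction. The comparison of Arc 1st with the mean of the later sets called 47 of 11107 probe sets, or 0.423%. Of these, 31 were lower in the first set (0.279%) and 16 were higher (0.144%). The median difference over all tested probe sets was 0.01 on the log2 scale. The arrays of the first set lay wholly apart from the 6 later arrays in 42 of the 47, 28 lower and 14 higher. Over all tested probe sets such separation was met in 8.68%, with the first set higher in 4.29% and lower in 4.39%. These p-values measure the spread between arrays of a set, which may share a sort or a hybridization, and Arc 1st is a single set. From the 9 Arc arrays alone 77 were called, and from the same arrays with the set as a random block 16, or 0.144%. Of those 16, 9 were among the 47, namely Vip, Npy, Tac1, Cbln4, Plscr1, Cpne8, Tdrkh, Smad4 and AY036118. The correlation within sets in the random-block fit was 0.0173, so it treated the 9 arrays as nearly independent. Since Arc 1st is a single set, p-values from that fit also rest mainly on the spread between arrays. They do not show that a difference exceeds the spread from set to set.

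**Figure D1:**
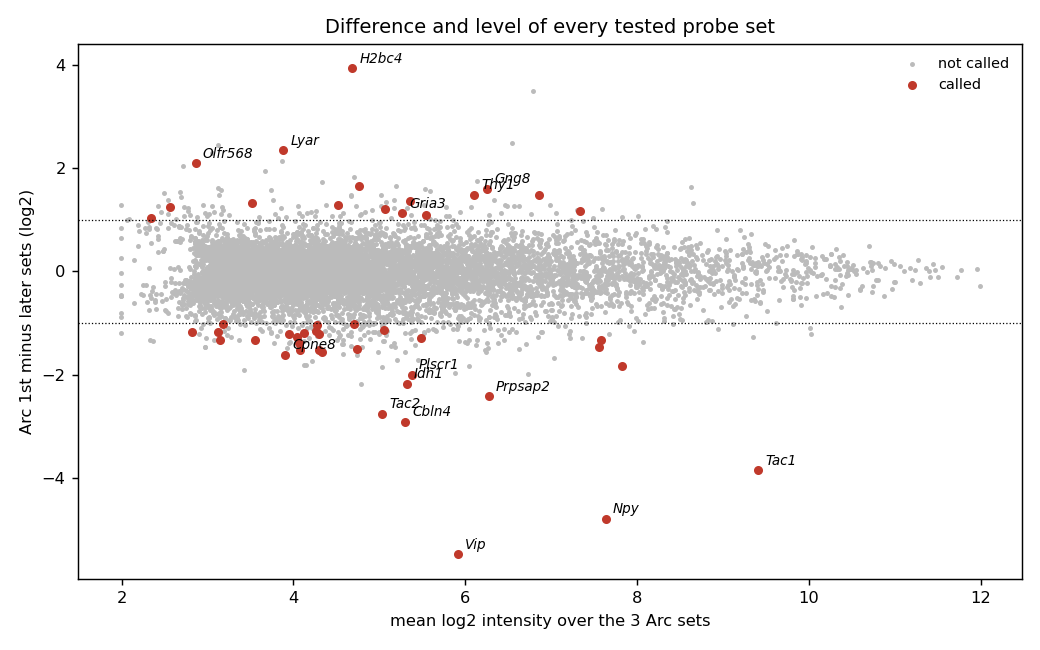
Difference between Arc 1st and the later sets (vertical axis, log2) against the mean log2 intensity over the 3 Arc sets (horizontal axis) for the 11107 tested probe sets. Red points are the 47 called ones, dotted lines mark a difference of 1 in either direction, and Vip at -5.48, Npy at -4.79 and Tac1 at -3.85 lie farthest below the rest.

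The largest decreases of the comparison were in genes of neuropeptides. Vip, which encodes vasoactive intestinal polypeptide, read 4.55, 6.17 and 3.62 in Arc 1st, 397, 145 and 157 in Arc 2nd and 215, 352 and 148 in Arc 3rd. The first set was dim on all 3 arrays, 1 of them below the intensity floor of 3.99, and the lowest later array stood far above the highest first one. Values were raised to this floor before differences were taken. It is the highest level, over all 78 arrays, below which the ranks of an array carry no order. On Arc arrays that level was at most 0.133. The log2 difference was -5.48 (SE 0.31, n = 3 and 6, limma adjusted p = 5.2e-21). Since the first set lay at background, this is at least 44.8-fold lower. With the set as a random block the adjusted p was 6.8e-05, which again rests mainly on the spread between arrays.

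Npy, which encodes neuropeptide Y, read 66.4, 12.6 and 12.3 in Arc 1st, 723, 359 and 543 in Arc 2nd and 852, 682 and 576 in Arc 3rd. Replicate 1 of Arc 1st was brighter than the other two arrays of its set, yet well below every later array. The difference was -4.79 (SE 0.64, n = 3 and 6, limma adjusted p = 1.6e-06), or 27.6-fold lower.

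Tac1, the gene of substance P and neurokinin A, read 121, 108 and 115 in Arc 1st, 1991, 1430 and 1575 in Arc 2nd and 1742, 1692 and 1565 in Arc 3rd. Both groups were tight and far apart. The difference was -3.85 (SE 0.89, n = 3 and 6, limma adjusted p = 0.024). The SD on the log2 scale was 0.08 within Arc 1st and 0.25 within Arc 2nd, whereas the SE of the fit draws on the spread of Tac1 within all 26 sets. From the 9 Arc arrays with the set as a random block the adjusted p was 3.6e-08, while without the floor, over 78 arrays, it was 0.20 and Tac1 was not called.

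Tac2, the gene of neurokinin B, read 11.8, 8.45 and 7.67 in Arc 1st, 45.1, 63.8 and 189 in Arc 2nd and 236, 16.7 and 26.0 in Arc 3rd. The groups did not overlap, although the later arrays spread widely. The difference was -2.76 (SE 0.60, n = 3 and 6, limma adjusted p = 0.016). This call was lost in 7 of 20 alternatives, with the set as a random block among them (adjusted p = 0.15).

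Cartpt, the gene of the CART peptide, did not separate the sets. It read 1884, 1682 and 992 in Arc 1st, 1702, 1307 and 1073 in Arc 2nd and 2437, 1193 and 1178 in Arc 3rd. All 3 sets were bright and overlapped, with a difference of 0.05 (SE 0.62, n = 3 and 6, limma adjusted p = 0.99). Of the 3 peptide genes taken as markers of the Arc cells, Cartpt was thus bright in every Arc set, while Vip and Npy were bright in the later ones.

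Of 16 amacrine peptide genes listed, 10 were bright enough to test. Vip, Npy and Tac1 were called lower and none was called higher, beside 0.279% of all tested probe sets called lower. Vip and Npy are markers given for this comparison, and the list was chosen with earlier results of these data known. The count is therefore a description and no sign of enrichment. The median difference of the 10 was -0.02. Of the other tested peptides, Sst (0.18), Nppc (-0.09), Cck (-0.49), Ghrh (0.31), Pdyn (0.09) and Cort (0.05) had set means of at most 17.0 and did not pass the test. Penk, Crh, Gal, Adcyap1, Trh and Nts were dim in all 3 Arc sets, and Tac2 is not on this list. The summed intensity of the 16 genes ran from 1216 to 2180 in Arc 1st, from 3332 to 4921 in Arc 2nd and from 3564 to 5352 in Arc 3rd. In sorted pools, fewer cells of a type and less RNA per cell cannot be told apart. Arc 1st is labelled batch 1 and Arc 3rd batch 3, so a difference between batches cannot be told apart from either.

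**Figure D2:**
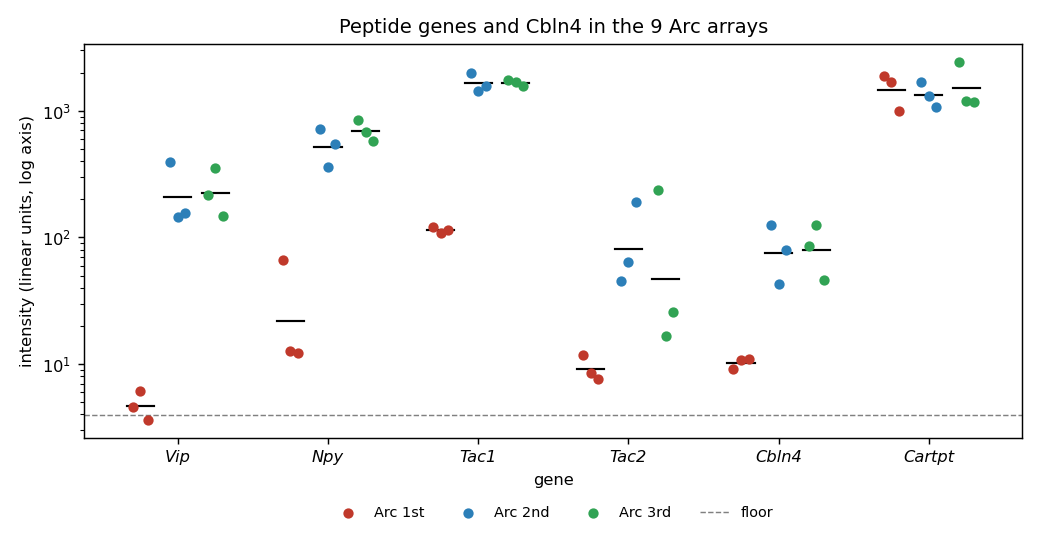
Intensity of each of the 9 Arc arrays (linear units on a log axis) for 5 peptide genes and Cbln4. Points are arrays coloured by set, black bars are geometric means of a set and the dashed line is the floor of 3.99. Arc 1st lies below both later sets for every gene shown except Cartpt.

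Cbln4 encodes a secreted protein of the cerebellin family, which links pre- and postsynaptic membranes. It read 9.15, 10.8 and 11 in Arc 1st, 126, 42.8 and 79.7 in Arc 2nd and 85.4, 126 and 46.3 in Arc 3rd. The first set was dim and uniform, and the lowest later array was clearly brighter. The difference was -2.91 (SE 0.34, n = 3 and 6, limma adjusted p = 4.5e-08), or 7.53-fold lower. Vip, Npy, Cbln4 and AY036118, which is described further on, kept their call in all 20 alternatives.

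The promoters of the genes that moved together, Vip, Npy, Tac1 and Cbln4, are shown beside that of Cartpt, which did not. Each run is the 250 bases before the gene's start, 5′ to 3′ on the gene's own strand, from RefSeq on GRCm38.p6. Capitals mark the letters TGACG or their reverse complement CGTCA, the core of the cyclic AMP response element, through which neuronal activity and cyclic AMP are known to drive several peptide genes.
Vip, chr10:5638968-5639217, plus strand: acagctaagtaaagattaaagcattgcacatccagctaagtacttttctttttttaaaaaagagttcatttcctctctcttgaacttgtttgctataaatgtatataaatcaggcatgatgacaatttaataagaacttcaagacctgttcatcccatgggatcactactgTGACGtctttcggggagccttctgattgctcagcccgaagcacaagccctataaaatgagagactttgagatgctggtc
Npy, chr6:49822460-49822709, plus strand: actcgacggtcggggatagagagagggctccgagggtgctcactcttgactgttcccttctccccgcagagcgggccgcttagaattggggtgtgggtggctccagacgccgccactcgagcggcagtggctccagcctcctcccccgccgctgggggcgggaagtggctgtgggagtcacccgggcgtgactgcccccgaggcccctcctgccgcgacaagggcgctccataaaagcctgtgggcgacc
Tac1, chr6:7554811-7555060, plus strand: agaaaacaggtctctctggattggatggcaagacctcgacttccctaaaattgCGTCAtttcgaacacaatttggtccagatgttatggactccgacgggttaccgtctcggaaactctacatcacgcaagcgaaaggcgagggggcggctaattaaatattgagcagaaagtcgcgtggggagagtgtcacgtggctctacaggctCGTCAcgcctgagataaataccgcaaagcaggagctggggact
Cbln4, chr2:172043467-172043716, minus strand: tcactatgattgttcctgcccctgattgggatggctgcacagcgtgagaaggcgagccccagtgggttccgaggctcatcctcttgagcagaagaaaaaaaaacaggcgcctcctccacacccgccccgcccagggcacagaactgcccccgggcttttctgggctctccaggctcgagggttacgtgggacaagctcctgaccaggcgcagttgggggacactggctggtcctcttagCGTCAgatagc
Cartpt, chr13:99900684-99900933, minus strand: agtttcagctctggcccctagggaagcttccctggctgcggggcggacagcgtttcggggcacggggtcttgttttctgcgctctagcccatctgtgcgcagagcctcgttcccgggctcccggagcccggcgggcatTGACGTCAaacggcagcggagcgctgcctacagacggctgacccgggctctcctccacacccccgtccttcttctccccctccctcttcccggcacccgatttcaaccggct

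TGACG on either strand was present in 17.8% of 32851 promoters of this length. It was found in the Vip promoter at -79, in Tac1 at -197 and -43 and in Cbln4 at -11, counted from the gene's start, and not in that of Npy. Cartpt held it at -112 and -109, which are the overlapping parts of 1 full palindrome, TGACGTCA, a motif present in 1.55% of promoters. The match was thus found both in genes that differed between the sets and in the one that did not. The TATA box letters TATAAA on the gene's strand, present in 7.59% of promoters, were found among the 5 only in Vip, at -157, -147 and -30. These matches describe letters and do not show binding.

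Across the 26 sets of the series, the later Arc sets were the brightest for Vip, with means of 224 in Arc 3rd and 208 in Arc 2nd, whose arrays overlapped. The amacrine line Igfbp2 followed at 60.5, Grik4 at 11.9 and Drd4 at 7.97. Arc 1st, at 4.67, lay near the floor with most other sets. For Cbln4 the order was the same at the top, with 79.3 in Arc 3rd, 75.5 in Arc 2nd and 35.5 in Igfbp2, and Arc 1st ranked 16 at 10.3.

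Npy was brightest in ChAT at 1224 and Igfbp2 at 1070, followed by Arc 3rd at 694 and Arc 2nd at 520, whose arrays overlapped, and by Gja10 at 209. Arc 1st ranked 16 for Npy at 21.7, near the median of 24.6 over the 23 sets of other lines. Tac1 was brightest in Crh at 2479 and Igfbp2 at 2136, followed by Arc 3rd at 1665 and Arc 2nd at 1649, and Arc 1st ranked 15 at 115. Cartpt kept the Arc sets together, with Arc 3rd at 1507, Arc 1st at 1465, Drd4 at 1361 and Arc 2nd at 1336, all overlapping, before a step down to Fbxo32 at 428. Chosen as the most different between Arc sets, these genes' ranks are given as a description.

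**Figure D3:**
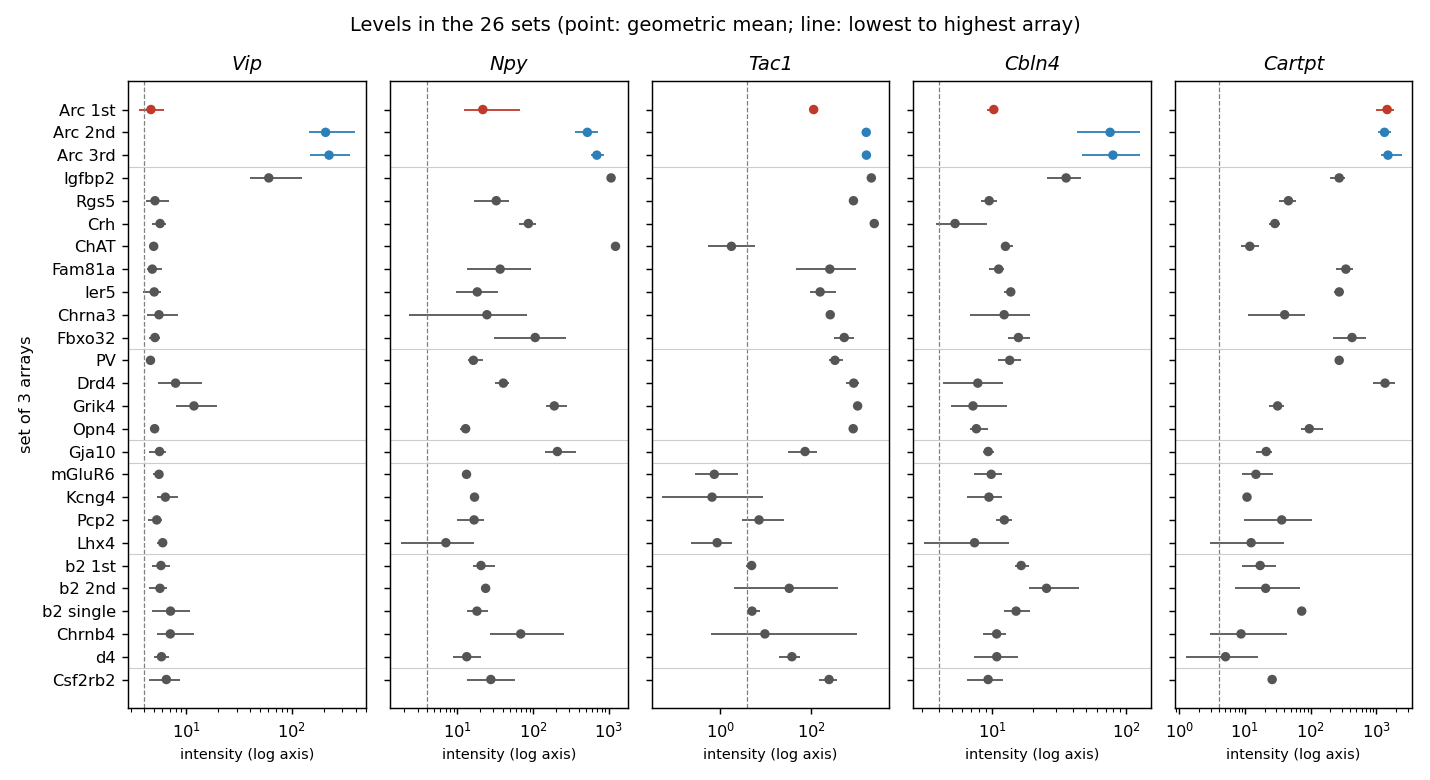
Intensity of 5 genes (log axes) in each of the 26 sets. Points are geometric means of 3 arrays, lines run from the lowest to the highest array and the dashed line is the floor; Arc 1st is red and the later Arc sets blue. Arc 1st sits with most other lines for Vip, Npy and Cbln4, and with the later Arc sets for Cartpt.

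Beyond the peptides and Cbln4, 10 further genes were among the 15 with the largest decrease whose arrays did not overlap. Prpsap2, a regulatory partner of the phosphoribosyl pyrophosphate synthetases, read 10.5, 21.7 and 71.7 in Arc 1st, 149, 109 and 142 in Arc 2nd and 90.4, 173 and 168 in Arc 3rd. The first set spread widely, its replicate 3 lying close to the lowest later array. The difference was -2.41 (SE 0.59, n = 3 and 6, limma adjusted p = 0.036), and the call was lost in 10 of 20 alternatives. Idh1, the cytosolic NADP-dependent isocitrate dehydrogenase, read 11.4, 13.0 and 20.9 in Arc 1st, 47.8, 45.1 and 42.8 in Arc 2nd and 85.2, 63.5 and 166 in Arc 3rd. Its 3 sets lay in separate steps, and the difference was -2.18 (SE 0.46, n = 3 and 6, limma adjusted p = 0.013).

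Plscr1, a phospholipid scramblase, read 16.6, 15.1 and 18 in Arc 1st, 94.4, 58.7 and 56.9 in Arc 2nd and 91.1, 71.5 and 40.2 in Arc 3rd. As with the peptides, the later sets overlapped each other and lay above the first. The difference was -2.0 (SE 0.44, n = 3 and 6, limma adjusted p = 0.016). Serinc1, a membrane protein that incorporates serine into lipids, had means of 97.3, 240 and 504 in the order of the sets, and its difference was -1.84 (SE 0.40, n = 3 and 6, limma adjusted p = 0.016).

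Cpne8, a calcium-dependent phospholipid-binding copine, was the most tightly determined of this group. It read 7.66, 6.59 and 7.12 in Arc 1st, 34.5, 15.9 and 26.4 in Arc 2nd and 26.4, 19.8 and 14.0 in Arc 3rd. Its difference was -1.61 (SE 0.26, n = 3 and 6, limma adjusted p = 0.00015). Its call was lost in 1 of 20 alternatives. Tdrkh, a tudor domain protein of the piRNA pathway, had means of 8.33, 24.0 and 23.9 and a difference of -1.52 (limma adjusted p = 0.0097). Smad4, the common mediator of TGF-beta and BMP signals, had means of 9.78, 23.4 and 33.4 and the same difference, but its call was lost in 14 of 20 alternatives.

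Gabrb1, the beta 1 subunit of the GABA-A receptor, read 6.25, 14.4 and 26.6 in Arc 1st, 51.4, 27.1 and 38.7 in Arc 2nd and 38.3, 31.6 and 44.3 in Arc 3rd. Replicate 3 of the first set fell just below the lowest later array. The difference was -1.5 (SE 0.34, n = 3 and 6, limma adjusted p = 0.022). Rabggtb, the beta subunit of the enzyme that attaches lipid anchors to Rab proteins, likewise had replicate 3 of Arc 1st, at 195, close to the later arrays, of which the lowest read 212. Its difference was -1.46 (limma adjusted p = 0.0051). Rwdd2a differed by -1.56 (limma adjusted p = 0.019).

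The other 16 genes called lower had smaller differences or overlapping arrays. They were Iyd, Frem3, Rbm3, Abce1, Rcn1, Tiprl, Dr1, Eif3a, Hnmt, Prps2, Gch1, Slc35f4, Eif4a2, Papss1, Dner and Npy5r. Npy5r, a receptor of neuropeptide Y, had means of 5.63 in Arc 1st, 8.31 in Arc 2nd and 15.7 in Arc 3rd with overlapping arrays. It was named after its values were seen.

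Arc 1st was higher in 14 called genes with separated arrays. Gng8, a G protein gamma subunit, read 172, 144 and 168 in Arc 1st, 41.0, 56.7 and 68.3 in Arc 2nd and 30.1, 53.6 and 84.9 in Arc 3rd. The difference was 1.60 (SE 0.40, n = 3 and 6, limma adjusted p = 0.04), or 3.04-fold higher, and the call was lost in 10 of 20 alternatives. The first set lay above every other set of the series in Gng8, the brightest of the other lines being Igfbp2 at 49.5. Ucma, named for its expression in cartilage matrix, read 382, 171 and 187 in Arc 1st, 50.4, 155 and 137 in Arc 2nd and 12.7, 134 and 166 in Arc 3rd. The gap between the groups was narrow, and replicate 1 of both later sets was the lowest of its set. The difference was 1.49 (SE 0.36, n = 3 and 6, limma adjusted p = 0.034), and the call was lost in 8 of 20 alternatives.

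Thy1, a surface glycoprotein used to mark ganglion cells, read 141, 120 and 150 in Arc 1st, 52.4, 58.9 and 71.8 in Arc 2nd and 38.4, 36.8 and 42.3 in Arc 3rd. Its sets formed 3 separate steps. The difference was 1.49 (SE 0.37, n = 3 and 6, limma adjusted p = 0.04), and the call was lost in 11 of 20 alternatives. Lynx1, a surface protein that binds nicotinic receptors, had means of 77.0, 45.1 and 19.8 and a difference of 1.37 (limma adjusted p = 0.023), with the call lost in 8 of 20 alternatives.

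Gria3, a subunit of AMPA glutamate receptors, read 50.2, 91.4 and 58.2 in Arc 1st, 39.1, 17.1 and 25.8 in Arc 2nd and 28.5, 30.6 and 44.2 in Arc 3rd. The difference was 1.12 (SE 0.25, n = 3 and 6, limma adjusted p = 0.019). Stac2, an adaptor of voltage-gated calcium channels, differed by 1.08 (limma adjusted p = 0.046), and Fndc10 by 1.18 (limma adjusted p = 0.044). Both were called by a narrow margin and lost the call in 14 and 12 of 20 alternatives.

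AY036118 was the gene of this direction that held in all 20 alternatives. It read 66.5, 69.7 and 42.9 in Arc 1st, 21.9, 23.0 and 21.6 in Arc 2nd and 17.6, 13.5 and 15.6 in Arc 3rd. The 3 sets were in steps without overlap, and the difference was 1.66 (SE 0.28, n = 3 and 6, limma adjusted p = 0.00034). Its gene identifier was the one of 42 named that found no match in the RefSeq table.

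H2bc4, a histone H2B gene, read 268, 142 and 105 in Arc 1st, 24.2, 56.5 and 14.3 in Arc 2nd and 0.0627, 0.065 and 0.065 in Arc 3rd. The Arc 3rd values lie under the floor, so the difference of at least 3.94 (limma adjusted p = 0.0097) is a lower bound. Lyar, a nucleolar protein, read 58.8, 39.5 and 48.6 in Arc 1st, 10.8, 21.4 and 19.8 in Arc 2nd and 10.2, 0.0972 and 0.864 in Arc 3rd, again partly below the floor, with a difference of at least 2.34 (limma adjusted p = 0.013). Without the floor the adjusted p of Lyar was 0.20 and that call was lost.

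Of the remaining 4 genes called higher, 3 were near the floor in the later sets. The odorant receptor genes Olfr568 and Olfr1275 differed by at least 2.10 and 1.04, since their later means of 4.38 and 3.27 lay around the floor, which all 6 later arrays of Olfr1275 were under. E230001N04Rik differed by at least 1.25, with a later mean of 4.41. 1700019D03Rik differed by 1.29, with a later mean of 17.0. Olfr1275 and 1700019D03Rik each lost the call in 13 of 20 alternatives. In Olfr568 replicate 2 of Arc 1st read 64.3 against 14.1 and 8.71 in the other arrays of its set. Uts2r and A730013G03Rik were called higher with overlapping arrays.

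**Figure D4:**
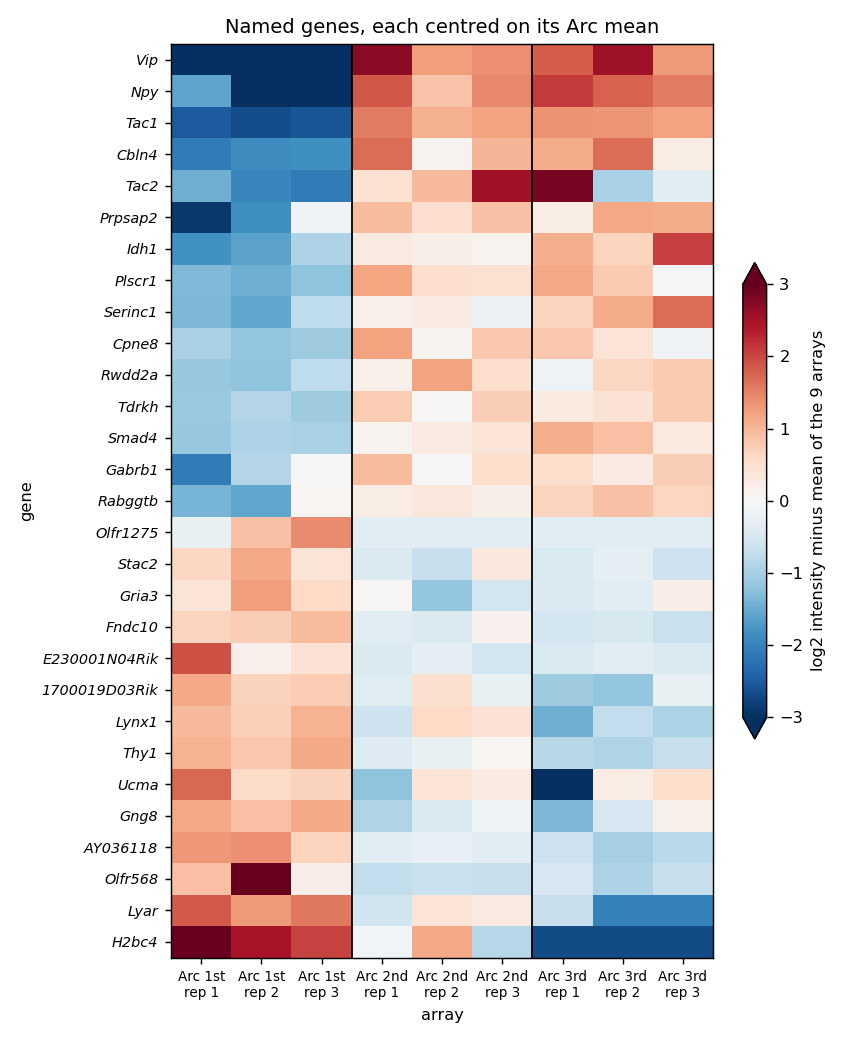
The 15 genes with the largest decrease and the 14 with an increase in Arc 1st whose arrays did not overlap, in the 9 Arc arrays; colour is log2 intensity, raised to the floor, minus the gene's mean over the 9 arrays, with the scale cut at 3 in either direction. Vip, Npy, Tac1 and Cbln4 change after Arc 1st, and their later sets overlap. In Idh1, Serinc1, Thy1 and H2bc4, for example, the arrays of Arc 2nd and Arc 3rd do not overlap. Such separation was met in 21.4% of tested probe sets, and none of these genes was called between the later sets.

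Genes that identify amacrine cells as a class were described by their levels. None of 13 tested class markers was called, and their median difference was -0.01. With 0.423% of all tested probe sets called, a count of 0 in this or any other list of such size is near the background and no result about its members. The summed intensity of this list was 1880 to 1915 in Arc 1st, 1686 to 1887 in Arc 2nd and 1996 to 2384 in Arc 3rd. Pax6, the transcription factor shared by amacrine cells, had means of 219, 230 and 259. Slc32a1, the vesicular transporter of GABA and glycine, had means of 520, 447 and 434. Tfap2a (1.02, limma adjusted p = 0.058) and Gad1, a GABA-synthesizing enzyme (-0.99, limma adjusted p = 0.077), came nearest to a call. Gad1 had means of 107, 166 and 272 over the sets.

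In the receptor lists, single members were called, beside 0.423% of all tested probe sets. Of 6 tested subunits of ionotropic GABA and glycine receptors, Gabrb1 was called lower and none higher, with a list median of -0.08. Of 8 tested ionotropic glutamate receptor subunits, Gria3 was called higher and none lower, with a median of 0.01. Each of these calls was lost in 6 of 20 alternatives, with the set as a random block among them (adjusted p = 0.13 for Gabrb1 and 0.15 for Gria3). None of 24 probe sets of voltage-gated potassium channels was called, with a median of -0.04.

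For genes that respond to activity, dissociation or stress the counts were also at the background of 0.423%. None of 26 tested immediate early and dissociation genes was called, with a median of 0.07. Fos had means of 12.4, 9.78 and 9.40, and Gadd45g, a stress-inducible growth arrest gene, had means of 17.8, 32.1 and 63.8 (-1.35, limma adjusted p = 0.083). None of 18 heat shock genes was called, with a median of -0.01. Of 73 probe sets for oxidative phosphorylation none was called. In that list 52 differences were above 0 and 21 below, with a median of 0.15, the largest in absolute size being 0.88.

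Markers of other cell types were examined because 200 sorted cells can carry others along. Of the lists for rods, cones, bipolar, horizontal, Muller glial, microglial, vascular, astrocytic and pigment epithelial cells, none had a called member, which at 0.423% of all probe sets called does not set these short lists apart. Thy1 was the 1 of 8 tested ganglion cell genes called, while the neurofilament genes of the same list, Nefl, Nefm and Nefh, had differences of -1.35, -0.98 and 0.94 that did not pass the test. The summed rod list ran from 274 to 363 in Arc 1st, 258 to 380 in Arc 2nd and 442 to 511 in Arc 3rd, against a median of 706 in the other lines. Of its 18 members, 5, 7 and 9 were at or below the floor on every array of the 3 sets, in that order. The members did not move together. Means in the same order were 29.1, 50.4 and 86.3 for Gnb1, 68.3, 116 and 206 for Gnb5 and 0.635, 0.309 and 61.7 for Prph2. They were 4.57, 30.1 and 0.0553 for Gngt1 and 3.78, 25.7 and 0.0732 for Sag. The sum therefore does not measure rod material. The ganglion list ran from 342 to 431, 324 to 421 and 268 to 376 in the same order. The microglial list was slightly higher in Arc 1st, at 148 to 166 against 117 to 145 on the later arrays, and all 7 tested members had differences above 0, up to 0.49, with none called. The horizontal list was higher in Arc 1st as well, at 295 to 419, against 226 to 283 in Arc 2nd and 203 to 224 in Arc 3rd. All 3 of its tested members had differences above 0, up to 0.62, with none called. Its member Septin4 had means of 282, 207 and 162 in the order of the sets. The part of these other cells in the called differences was not tested.

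Each later set was also compared with Arc 1st on its own. These comparisons share the 3 arrays of Arc 1st and are not independent of each other. Against Arc 2nd, 10 probe sets were called (0.09%), and against Arc 3rd, 104 were called (0.936%), 82 of them lower in Arc 1st. The peptide genes gave nearly the same difference in both. Vip differed by -5.43 from Arc 2nd and -5.54 from Arc 3rd, Npy by -4.58 and -5.00, Tac1 by -3.85 and -3.86 and Cbln4 by -2.88 and -2.95. Tac1 was called against Arc 3rd (limma adjusted p = 0.044) but not against Arc 2nd (limma adjusted p = 0.20). Idh1 differed by -1.63 and -2.73, Serinc1 by -1.30 and -2.37, Lynx1 by 0.77 and 1.96, and H2bc4 by 2.56 and at least 5.31.

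The later sets differed from each other in 9 called probe sets, or 0.081%. Arrays of Arc 2nd and Arc 3rd did not overlap in 21.4% of tested probe sets. None of the 47 genes was called between the later sets. The step from Arc 2nd to Arc 3rd continued the direction of the step from Arc 1st in 36 of the 47, or 76.6%, against 60.1% of all tested probe sets. This share uses Arc 2nd and Arc 3rd on both sides and is given as a description.

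Of the 9 genes, 6 were lower in Arc 2nd than in Arc 3rd. Zmiz1, a transcriptional coactivator, read 37.8, 30.2 and 33.2 in Arc 2nd and 140, 118 and 99.7 in Arc 3rd, with 81.3, 67.5 and 73.2 in Arc 1st between them. Its difference was -1.81 (SE 0.32, n = 3 and 3, limma adjusted p = 0.0054), and it was the one of the 9 that kept its call in all 16 alternatives of this comparison. Cacng3, an AMPA receptor auxiliary subunit, read 58.7, 29.4 and 42.7 in Arc 2nd and 120, 133 and 141 in Arc 3rd, with 34.6 to 46.8 in Arc 1st (-1.65, limma adjusted p = 0.018). The others were Ctps, a CTP synthase (-1.98), Fam171b (-2.0), Impa1, an inositol monophosphatase (-1.13), and Vav3, a guanine nucleotide exchange factor (-1.12).

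The other 3 of the 9 were higher in Arc 2nd. Gm10785, a long noncoding RNA in RefSeq, read 1213, 801 and 367 in Arc 1st, 472, 365 and 612 in Arc 2nd and 32.7, 0.0623 and 4.50 in Arc 3rd. Its difference was at least 5.82 (limma adjusted p = 0.0095), since 1 of the Arc 3rd arrays was below the floor. Prelid2 read 17.0, 13.4 and 22.9 in Arc 2nd, against 4.69 to 8.81 in Arc 3rd and 4.89 to 7.68 in Arc 1st (1.44, limma adjusted p = 0.019). Alox12b, a lipoxygenase, read 14.3, 31.2 and 42.7 in Arc 2nd and 10.2, 10.2 and 10.1 in Arc 3rd (1.39, limma adjusted p = 0.011).

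The rod line b2 was the other line measured in 3 sets, titled b2 1st, b2 2nd and b2 single. The first was in batch 1 and the others, taken as the later sets, in batch 2. Arc 3rd was in batch 3 and Arc 2nd unlabelled, so the steps between batches are unlike in the 2 lines. The first set of b2 differed from its later sets in 261 of 11708 probe sets, or 2.23%. Of the 47 Arc genes, 29 were bright enough in b2 to be tested. Their differences had the same sign in 20 (69.0%, against 57.0% of all probe sets tested in both lines), and none of the 29 was called in b2 in either direction. The difference between the Arc and b2 changes was itself called in 43 of 9992 probe sets (0.43%), among them 7 of the 29. The 29 were chosen by the Arc difference, which is part of this contrast, so that count is a description. Npy differed by -0.01 in b2, so that the Arc change exceeded it by -4.77 (limma adjusted p = 0.0025). Cbln4 differed by -0.25 in b2 and by -2.66 between the lines (limma adjusted p = 0.0016). Vip was too dim in b2 to be tested. Npy and Cbln4 were low there as well. The 4 sets of batch 2, both later b2 sets among them, had means of 13.3 to 24.6 for Npy and 9.83 to 25.4 for Cbln4. Such low levels leave little room for a lower first set in b2, so for these genes the contrast mainly restates the Arc change.

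Other amacrine lines were measured in different batches but never repeated. ChAT, Fam81a and Ier5 of batch 1 differed from Igfbp2, Rgs5 and Crh of batch 3 in 1068 of 11107 probe sets, or 9.62%, and batch and line cannot be told apart there. No array is shared with the Arc comparison. Of the 47 Arc genes, 37 had the same sign in it (78.7%, against 66.1% of all tested probe sets), 28 of the 31 lower ones (90.3%) and 9 of the 16 higher ones (56.2%). By the test, 19 of the 47 were called the same way and 2 the opposite way. Over all 11107 tested probe sets, 841 were called in the direction of their Arc difference and 227 in the opposite one. Across all tested probe sets the 2 sets of differences correlated at 0.397, where genes are not independent replicates.

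Single genes took different places in that comparison. Tac1 was lower in batch 1 there too, by -4.86 (limma adjusted p = 5.8e-09), and so were Plscr1 by -2.58 (limma adjusted p = 8.5e-10), Cpne8 by -1.49 (limma adjusted p = 1.6e-09) and Vip by -1.29 (limma adjusted p = 2.3e-06). Over the other sets of every cell type, Tac1 had a median of 9.65 in 7 sets of batch 1 and 857 in 10 of batch 3. The same medians were 5.01 and 6.21 for Vip and 20.6 and 36.6 for Npy. The part of the batch in the Arc difference of Tac1 was not tested. Among the sets of other lines Vip had a mean of 60.5 in Igfbp2 and of at most 11.9 elsewhere. Npy differed by -0.63 (limma adjusted p = 0.25) and Cbln4 by 0.03 (limma adjusted p = 0.94), neither called. For Npy, ChAT at 1224 in batch 1 stood against Igfbp2 at 1070 in batch 3, so its difference depends on which lines each batch held. Gng8 and Ucma, higher in Arc 1st, were lower in batch 1 among these lines, by -2.05 (limma adjusted p = 2.2e-08) and -1.38 (limma adjusted p = 1.1e-05). Igfbp2 of batch 3 was the brightest other set for both, at 49.5 and 85.6. Over other sets of every cell type, the medians in batch 1 and batch 3 were 6.10 and 6.09 for Ucma and 6.90 and 11.1 for Gng8. The Ucma difference thus rests mainly on Igfbp2.

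H2bc4, Lyar and Gm10785, which had Arc 3rd arrays under the floor, were also set against the other lines by batch. Lyar had a mean at or below the floor in 7 of 10 other batch 3 sets and in none of 7 other batch 1 sets, with medians of 2.30 and 27.4. Gm10785 was there in 4 of 10 and 0 of 7, with medians of 8.31 and 724. H2bc4 was there in 3 of 10 and 1 of 7, with medians of 35.0 and 436. The part of the batch in the Arc differences of these genes was not tested apart from these values.

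**Figure D5:**
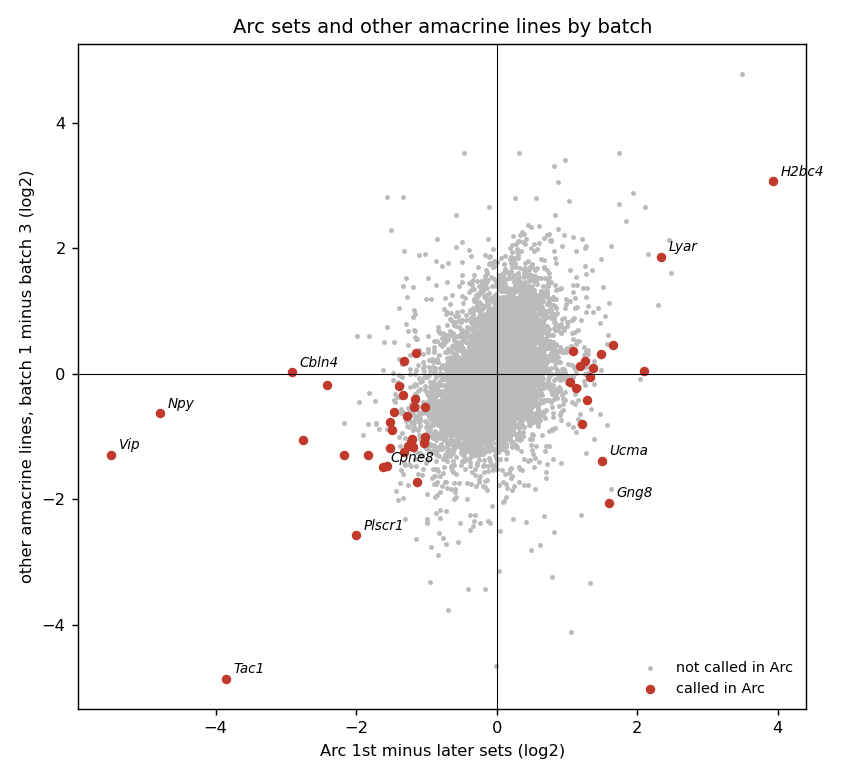
Difference between Arc 1st and the later Arc sets (horizontal axis, log2) against the difference between other amacrine lines of batch 1 and of batch 3 (vertical axis, log2) for all 11107 tested probe sets. The 47 called in Arc are red; Tac1 and H2bc4 lie far out on both axes, Npy and Cbln4 mainly on the horizontal one, and Gng8 and Ucma have opposite signs.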

How the data were processed

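The authors deposited a table of array intensities, made with RMA, oligo, R 2.11.1 and mm9 per the submitters' processing notes, with settings not given in the sources used here. The sorted values of the 78 columns are identical (largest difference 0), as after quantile normalization. Log2 values had been assumed, but the intensities run from 0.0238 to 5770, so log2 was taken here. On 70 arrays the lowest values stand in a run ordered by identifier. The highest end of such a run, 3.99, was set as the floor for all arrays, although runs on Arc arrays end by 0.133.

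Probe sets with 1 symbol were tested where an Arc set's mean exceeded 9.01, the median of all values; 8339 were dim. For b2 this was asked of the b2 sets. limma 3.58.1 (R 4.3.3) fitted 26 set means over all 78 arrays, with a trend in the prior variance. On simulated data for Arc 1st against later sets with 11107 probe sets, it recovered 82 of 100 changes of 1.5 and 99 of 100 of 3 (log2). The simulated arrays varied independently, without the floor and without any other shift between the Arc sets. This recovery therefore does not cover shifts from set to set.

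Genes were named by rule: up to 15 in each direction called with arrays apart, up to 6 for Arc 2nd against Arc 3rd, called list members, the driver and the markers. Of 42 named, 41 matched RefSeq by gene identifier. Where a gene had several probe sets, each was tested. The comparison and the 24 gene lists were chosen with earlier results of these data known. The number of arrays limits the precision. Alternatives changed the offset, floor, filter, centring, trend, arrays fitted, set as a block and each array left out.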

Additional observations from a re-analysis of the deposited data

Results flagged for a closer look

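Among the named genes, 6 changed differently between the first and later sets of Arc than between the first and later sets of the rod line b2, by the contrast of both differences in limma (values in log2, Arc change less b2 change). Npy differed by -4.77 (adjusted p = 0.0025), Plscr1 by -2.74 (adjusted p = 0.018), Cbln4 by -2.66 (adjusted p = 0.0016) and Rabggtb by -2.18 (adjusted p = 0.002). Higher in Arc were AY036118 by 1.86 (adjusted p = 0.0097) and Fndc10 by 1.71 (adjusted p = 0.037). The later sets of b2 were in batch 2, whereas Arc 3rd was in batch 3 and Arc 2nd unlabelled, so these contrasts set unlike batch steps against each other. In b2 itself Plscr1 and Rabggtb were higher in the first set by 0.74 and 0.72, and neither passed the test there. Npy, Cbln4 and Plscr1 were low in b2, with means in the 4 batch 2 sets of at most 24.6, 25.4 and 6.87. Their contrasts thus mainly restate the Arc change. The named genes were chosen mostly by their Arc difference, which is part of this contrast, so the 6 are given as a description. Over all probe sets tested in both lines, 43 of 9992 (0.43%) were called in it. None of the 42 named probe sets had a later Arc array that stood apart from the other 5 by Dixon's criterion.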

How the results depend on the processing

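No called difference of a named gene changed sign in any alternative. The 47 calls of Arc 1st against later sets became 26 with log2 of the value plus 16, 30 without the filter, 77 from the 9 Arc arrays alone (24 of them shared) and 16 from those 9 with the set as a random block, and ran from 16 to 39 with 1 array left out, namely 16 without Arc 1st replicate 1, 21 without Arc 1st replicate 2 and 25 without Arc 2nd replicate 1. The 6 calls in gene lists became 3 with the random block and 2 to 6 with 1 array left out. Arc 1st against Arc 2nd (10) gave 6 from the 9 arrays alone and 5 to 12 with 1 left out, lowest without Arc 2nd replicate 3. Arc 1st against Arc 3rd (104) gave 59 with the offset of 16, 69 without the filter, 207 from the 9 arrays and 34 to 86 with 1 left out, lowest without Arc 1st replicate 1. Arc 2nd against Arc 3rd (9) gave 2 to 7, b2 (261) 263 to 402, the difference between Arc and b2 (43) 16 to 73, and the other amacrine lines (1068) 839 to 1539, or 300 with the offset. The cause was not tested. With the replicate number as a block, 45 were called, 44 of them shared. Deviations of arrays with the same number had a mean correlation of 0.0177, and 5 of 9 arrays correlated best with their own number, so the numbers were not used as a pairing.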
